A study of Mus musculus with 4 samples.

Results

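The genes described here encode 8 isoforms of protein kinase C, a family of serine and threonine kinases that includes the cellular receptors of phorbol esters. Every probe set that the platform annotation assigned to exactly 1 of the symbols Prkca, Prkcb, Prkcd, Prkce, Prkch, Prkci, Prkcq and Prkcz was taken, which gave 8 of the 18193 genes named by probe sets of their own and 20 of the 45101 probe sets on the array. A probe set is a group of short probes read out as 1 signal for a transcript. The samples were skin melanocytes of mice with a Balb/c background, as 2 arrays of a non-pigmented line homozygous for a point mutation in the tyrosinase gene and 2 arrays of a pigmented line in which that mutation is corrected. The sources used here do not say how the lines were derived or whether each array of a line had its own culture. The p-values here therefore reflect array-to-array spread alone, which could be purely technical. All cultures were kept at 37 °C and 10% CO2 in RPMI 1640 medium with fetal calf serum (FCS), 2-mercaptoethanol, added phenol red and the phorbol ester TPA (tetradecanoyl phorbol acetate). Because TPA was in the medium of both lines, the comparison is between lines that were both exposed to it, and a response to TPA itself was not measured.

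Protein kinase C isoforms fall into 3 classes by what switches them on. The conventional isoforms, here Prkca and Prkcb, need calcium and the membrane lipid diacylglycerol. The calcium-independent isoforms Prkcd, Prkce, Prkch and Prkcq respond to diacylglycerol alone, and the atypical isoforms Prkci and Prkcz to neither. TPA takes the place of diacylglycerol on the C1 domain of the conventional and calcium-independent classes, first activating these kinases and, on long exposure, leading to the breakdown of the proteins. Normal mouse melanocytes are commonly grown with a phorbol ester, and the protein made from Prkcb is known to phosphorylate and activate tyrosinase. The arrays measured RNA, not protein or kinase activity.

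Of the 8 isoforms, Prkcq, which encodes the theta isoform, differed most between the lines. Its signal was 7.29-fold higher in the pigmented line, on the scale of log2(signal + 16) used throughout. Prkce, Prkch and Prkcd had higher means in the pigmented line, by 1.44-fold to 2.23-fold in the probe set with the highest mean signal of each gene, and did not pass the test. The probe set of Prkci with the highest mean signal differed by a log2 value of 0.23, and the probe sets of Prkca had lower means in the pigmented line. Prkcb and Prkcz were too dim to be tested.

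The sequence before the RefSeq start of Prkcq is shown because this gene carries the main difference. It covers 250 bases, GRCm38.p6 chr2:11172132-11172381, plus strand, and the capitals mark a GC box (GGGCGG, or CCGCCC on the other strand). The gene spans chr2:11171905-11301226, so this start lies inside the annotated gene and a longer transcript may cover these bases.
Prkcq: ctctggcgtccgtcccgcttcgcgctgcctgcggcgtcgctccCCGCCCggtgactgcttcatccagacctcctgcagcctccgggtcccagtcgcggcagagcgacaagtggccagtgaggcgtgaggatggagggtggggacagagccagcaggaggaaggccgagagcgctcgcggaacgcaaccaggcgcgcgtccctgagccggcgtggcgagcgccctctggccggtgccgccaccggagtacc

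The RefSeq table held 9 windows of 300 bases, from 250 before a start to 50 after it, for 6 of the 8 genes. Prkce and Prkch were not among them. The windows were searched on both strands for the phorbol ester response element bound by AP-1 (TGANTCA), the cAMP response element (TGACGTCA), the E-boxes CACGTG and CATGTG that Mitf can bind, and the GC box. No window held the AP-1 element or CATGTG, which 7.81% and 14.2% of all 32851 windows of this length held. A CACGTG E-box, held by 7.15% of all windows, was found in 1 window of Prkcd, where its last base is the first of a GC box. A cAMP response element, held by 1.79% of all windows, was found at the second of 3 listed starts of Prkcz. GC boxes, in 35.7% of all windows, occurred in 7 of the 9. These are matches of letters only. The 2 stretches with a rarer motif are shown with that motif in capitals, at chr14:30626297-30626326 and chr4:155345778-155345807, both on the minus strand.
Prkcd: ggacccccagctCACGTGggcggagcttcg
Prkcz: ttgtttccgtgTGACGTCAgctcctccgta

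The median signal of an array lay between 99.7 and 130 (129.6 before rounding), and the authors had scaled all 4 arrays to a common trimmed mean of 500.0. The number of arrays limits the precision, since an exact permutation test of 2 against 2 arrays, two-sided, cannot give a p below 0.333. RNA integrity was read from the Gapdh control probe sets, as their 3′ signal over their 5′ signal. It was 0.903 and 0.864 in replicate 1 of the non-pigmented and pigmented line, and 20.2 and 16.8 in replicate 2 of either. The array titles carry 2 dates, which pair the arrays the other way, non-pigmented replicate 1 with pigmented replicate 2. Cell type markers differed too. In the non-pigmented arrays Kit, a melanocyte growth factor receptor, lay near the filter described below (62.4 and 72.1), while Mbp, a myelin protein, was at 14020 and 11821. Of 8 melanocyte markers tested, 6 were called higher in the pigmented line by limma, against 1.38% of all genes tested. Sox10 was at 8268 to 10232 on every array. The summed signal of the 8 was 14231 and 21763.5 in the non-pigmented and 116937 and 113028 in the pigmented arrays. Of 6 Schwann cell markers tested 4 were called lower, against 2.14% of all genes tested. The summed signal of the 6 was 23049 and 33194 against 2212 and 3127. The part of these differences in the results below was not tested. In cultured cells read in bulk, fewer cells of a type and less RNA per cell cannot be told apart.

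Differences between the lines were tested with limma on log2(signal + 16), with Benjamini-Hochberg adjustment and a call at an adjusted p under 0.05. Each gene was represented by its probe set with the highest mean signal, and a second fit took every probe set. Genes or probe sets with a mean log2 value under 6.44 (a signal of 70.7) were left out, because no detection call accompanies the values. Of the 8 isoform genes 6 were tested, and of their 20 probe sets 11. Among the genes 1 of 6 was called, against 3.51% of all 12551 genes tested. Among the probe sets 0 of 11 were called, against 1.49% of all 27022 probe sets tested, with 4 at an unadjusted p under 0.05 in the same limma fit, against 11.6% of all. By direction, 0 were called higher, against 0.585% of all, and 0 lower, against 0.903%. Blocking on the integrity pairs, 1 of the 11 was called, against 4.64% of all.

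**Figure D1:**
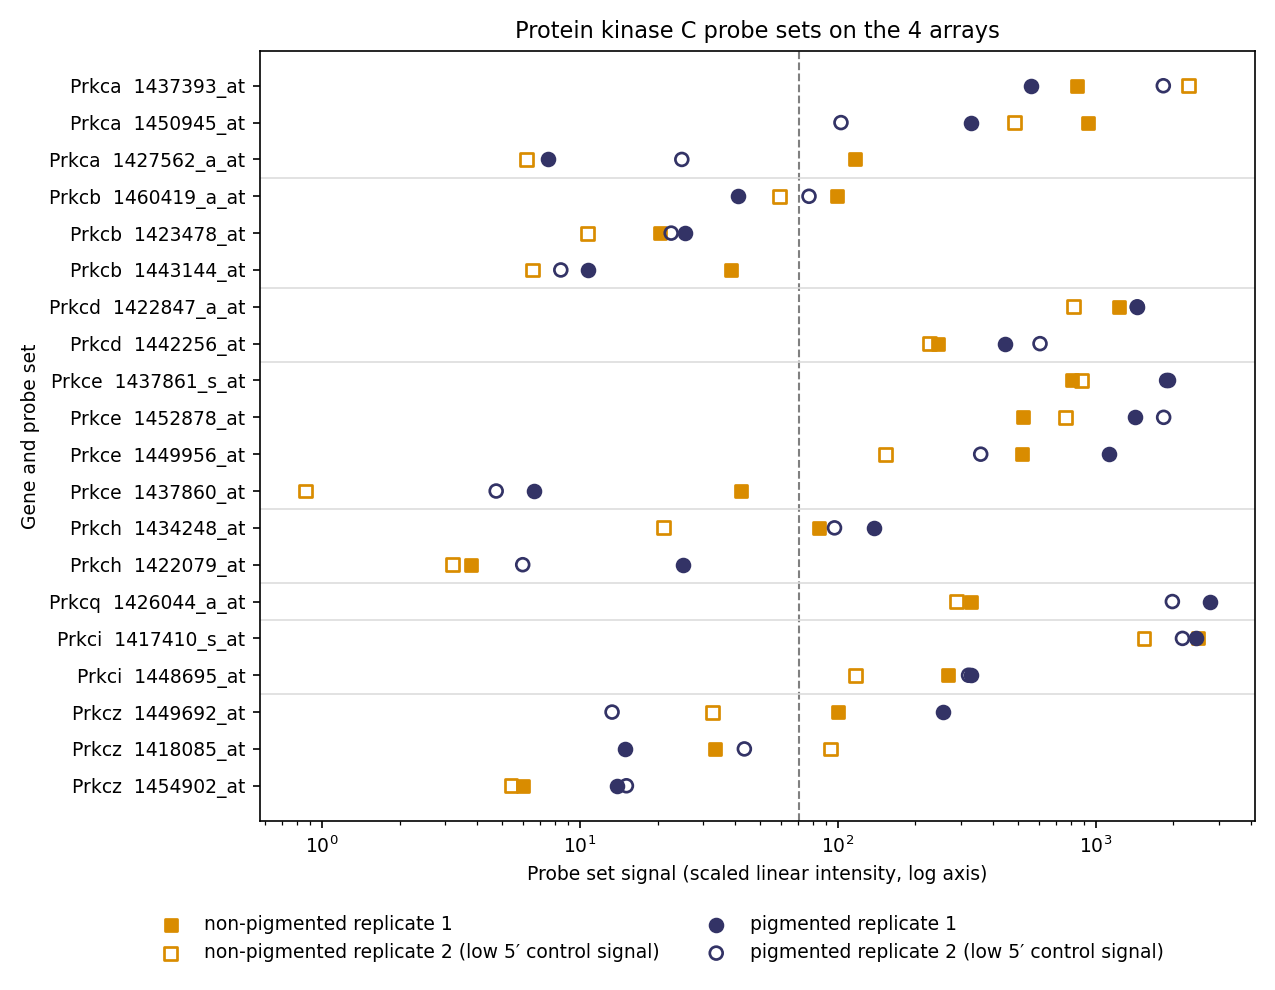
Signal of each of the 20 probe sets on the 4 arrays, on a log axis, with squares for the non-pigmented and circles for the pigmented line and open symbols for the 2 arrays with low 5′ control signal. The dashed line is the filter at a signal of 70.7, and the Prkcq probe set shows the widest gap between the lines among the probe sets to its right.

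Among the calcium-independent isoforms, Prkcq encodes a kinase best known from T cell receptor signalling and from skeletal muscle. Its only probe set, 1426044_a_at, had signals of 328 and 288 in the non-pigmented and of 2760.3 and 1981 in the pigmented arrays. Both pigmented arrays lay far above both non-pigmented ones, and within each line the arrays were close. On the log2 scale the non-pigmented arrays averaged 8.34 ± 0.13 (SD, n = 2) and the pigmented arrays 11.20 ± 0.34 (SD, n = 2), a difference of 2.86 ± 0.43 (SE), with an adjusted p of 0.0252 by limma over all genes. Among the 173 genes called higher it ranked 136 by the size of the difference. The difference was 3.01 in the array pair with kept 5′ control signal and 2.72 in the pair with low 5′ signal, and it was 2.54 and 3.19 within the 2 dates.

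The size of the Prkcq difference varied little between alternatives while its call did not hold in all of them. Over 16 alternatives of the fit by gene the difference ranged from 2.62 to 3.10 and the adjusted p by limma from 0.00968 to 0.127, with 13 past the threshold. It missed with the date as a replicate block (adjusted p of 0.0628), without non-pigmented replicate 1 (0.0979) and without non-pigmented replicate 2 (0.127). In the fit of all probe sets, which adjusts over more tests, the adjusted p by limma was 0.0533, and 0.0117 when integrity pairs were blocked. Of 14 alternatives of that fit, 3 were past the threshold and 11 missed it.

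T lymphocytes, which also express Prkcq, were looked for by 8 marker genes, of which 7 were on the array under 1 symbol. Of these, 4 (Cd3d, Cd3e, Cd3g and Cd2, of the T cell receptor complex and the T cell surface) lay below a signal of 70.7 on all 4 arrays, and none was listed at 0. Cd8a (322 and 490 against 400 and 213) and Zap70 (689 and 82.8 against 87.5 and 210) lay above that signal on all 4 arrays. The summed signal of the 7 was 1130.1 and 761 in the non-pigmented and 599 and 519 in the pigmented arrays, with Zap70 alone at 689 in non-pigmented replicate 1. The part of T cells in the Prkcq values was not tested. Of the 2 tested, Cd8a and Zap70, limma called 0, against 3.51% of all genes tested. In that fit 0 of the 2 had an unadjusted p under 0.05, against 13.9% of all.

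By the distance between log2 values centred on each gene's mean over the 4 arrays, the tested genes with the pattern most like Prkcq were Tbc1d16 (0.140), Rab5b (0.247), Syngr1 (0.295) and Fst (0.327). Tbc1d16, a regulator of Rab proteins, had signals of 153 and 134 against 1216 and 888. Rab5b, an endosomal Rab protein, had 124 and 112 against 1066 and 961. The likeness rests on 4 arrays and is a description only.

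Prkce encodes the epsilon isoform, which is found in many tissues. Its probe set with the highest mean signal, 1437861_s_at, had signals of 809 and 879.8 in the non-pigmented and 1913 and 1882 in the pigmented arrays. A second, 1452878_at, had 524 and 765 against 1424 and 1833. In both, the pigmented arrays lay above the non-pigmented ones with no overlap. The differences were 1.15 ± 0.43 (SE) and 1.33 ± 0.47, and neither was called (adjusted p of 0.373 and 0.355 by limma over probe sets). The gene was also not called in the fit by gene, with an adjusted p of 0.270 by limma. Neither was it with integrity pairs (0.0840) or the date (0.764) as a block.

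The third probe set of Prkce, 1449956_at, had signals of 518 and 153 against 1124 and 358. Here the groups overlapped, because on either line the array with low 5′ control signal was dimmer, by a log2 value of 1.66 in the non-pigmented and 1.61 in the pigmented line. The difference between the lines was 1.09 within the pair with kept 5′ signal and 1.14 within the other, close to that of the first 2 probe sets, but -0.51 and 2.75 within the dates. The fourth, 1437860_at, was dim, at 42.2 and 0.860 against 6.64 and 4.74, and was not tested.

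Prkcd encodes the delta isoform, a widely expressed kinase with roles in cell death and stress signalling. The signals of 1422847_a_at were 1225 and 817 in the non-pigmented and 1438 and 1448 in the pigmented arrays. Those of 1442256_at were 245 and 227 against 446 and 608. Both probe sets were higher in both pigmented arrays. Their sizes differed, with log2 differences of 0.52 ± 0.46 (SE) and 1.09 ± 0.47, and neither was called (adjusted p of 0.750 and 0.454 by limma over probe sets).

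Prkch encodes the eta isoform, which is prominent in epithelia such as the epidermis. Signals of 1434248_at were 84.7 and 21.1 against 138 and 97.1, just past the filter in the mean, with the pigmented arrays on top. The difference was 1.11 ± 0.65 (SE) with an adjusted p of 0.605 by limma over probe sets, and it was 0.17 and 2.05 within the dates. The other probe set, 1422079_at, lay at 3.79 and 3.21 against 25.2 and 6.00 and was not tested. Of 7 keratinocyte markers on the array, 4 were tested and 1, Krt10, was called lower in the pigmented line, against 2.14% of all genes tested. The summed signal of the 7 was 880.2 and 867 in the non-pigmented and 530.1 and 495 in the pigmented arrays. The tested markers were split in direction. Krt5 (91.4 and 104 against 195 and 214) and Dsp (69.8 and 43.8 against 120.3 and 74.3) had higher values in both pigmented arrays, as Prkch had, and Pkp1 lower ones (-2.51), none of the 3 called. Prkch and Dsp passed the filter only through the pigmented arrays, with non-pigmented mean log2 values of 5.93 and 6.16. Krt10 and Pkp1 passed it only through the non-pigmented arrays, with pigmented means of 5.21 and 5.91. The part of these markers in the Prkch values was not tested.

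Of the conventional isoforms, Prkca encodes the widely expressed alpha isoform, and its 3 probe sets did not behave alike. The signals of 1437393_at were 847 and 2292 in the non-pigmented and 563 and 1827 in the pigmented arrays. The groups overlapped, and in either line the array with low 5′ control signal was the brighter one, by a log2 value of 1.42 in the non-pigmented and 1.67 in the pigmented line. The signals of 1450945_at were 935 and 485 against 329 and 103. In that probe set the arrays with low 5′ control signal were the dimmer ones, and both pigmented arrays lay below both non-pigmented arrays.

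The log2 differences between the lines were -0.45 ± 0.76 (SE) for 1437393_at and -1.77 ± 0.69 for 1450945_at, with adjusted p-values of 0.880 and 0.398 by limma over probe sets. In the array pair with kept 5′ signal they were -0.58 and -1.46, and in the other -0.32 and -2.08. Without non-pigmented replicate 2 or pigmented replicate 1 the difference of 1437393_at turned to 0.26 or 0.38. For 1450945_at the adjusted p by limma was 0.0677 when integrity pairs were blocked and 0.690 with the date as a replicate block. The third probe set, 1427562_a_at, was at 116 in non-pigmented replicate 1 and between 6.22 and 24.8 on the other 3 arrays, and was not tested.

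Prkcb encodes the beta isoform, the one linked to tyrosinase activation. Its brightest probe set, 1460419_a_at, had signals of 99.7 and 59.4 in the non-pigmented and 40.9 and 77.3 in the pigmented arrays, with the groups overlapping. The other 2 lay between 6.57 and 38.5 on all arrays. All 3 were below the filter in the mean, so no level was set for Prkcb in either line. In the fit without a filter limma called 0 of the 3, and 0 had an unadjusted p under 0.05. Beside it, Tyr itself had signals of 214 and 67.2 in the non-pigmented and 17306 and 11698 in the pigmented arrays (adjusted p of 0.00672 by limma).

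Of the atypical isoforms, which do not bind phorbol ester, Prkci encodes a kinase of cell polarity. The signals of 1417410_s_at were 2488 and 1537 in the non-pigmented and 2442.5 and 2168 in the pigmented arrays. The groups overlapped, and the log2 difference of 0.23 ± 0.44 (SE) had an adjusted p of 0.893 by limma over probe sets. It turned to -0.012 when each array was centred on its median. The other probe set, 1448695_at, had 267 and 117 against 329 and 321, a difference of 0.81 ± 0.55 (SE, adjusted p of 0.660 by limma). Without non-pigmented replicate 2, the dimmest array in both probe sets, the difference of 1417410_s_at was -0.11.

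Prkcz, the other atypical isoform, was dim in all 3 of its probe sets. The signals of 1449692_at were 99.98 and 32.7 against 256 and 13.3, with the highest and the lowest value both in the pigmented line. Those of 1418085_at were 33.5 and 93.4 against 14.9 and 43.4, and those of 1454902_at were 6.00 and 5.41 against 13.9 and 15.1. The last pair of groups did not overlap, but all of its values were far below the filter. None was tested.

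**Figure D2:**
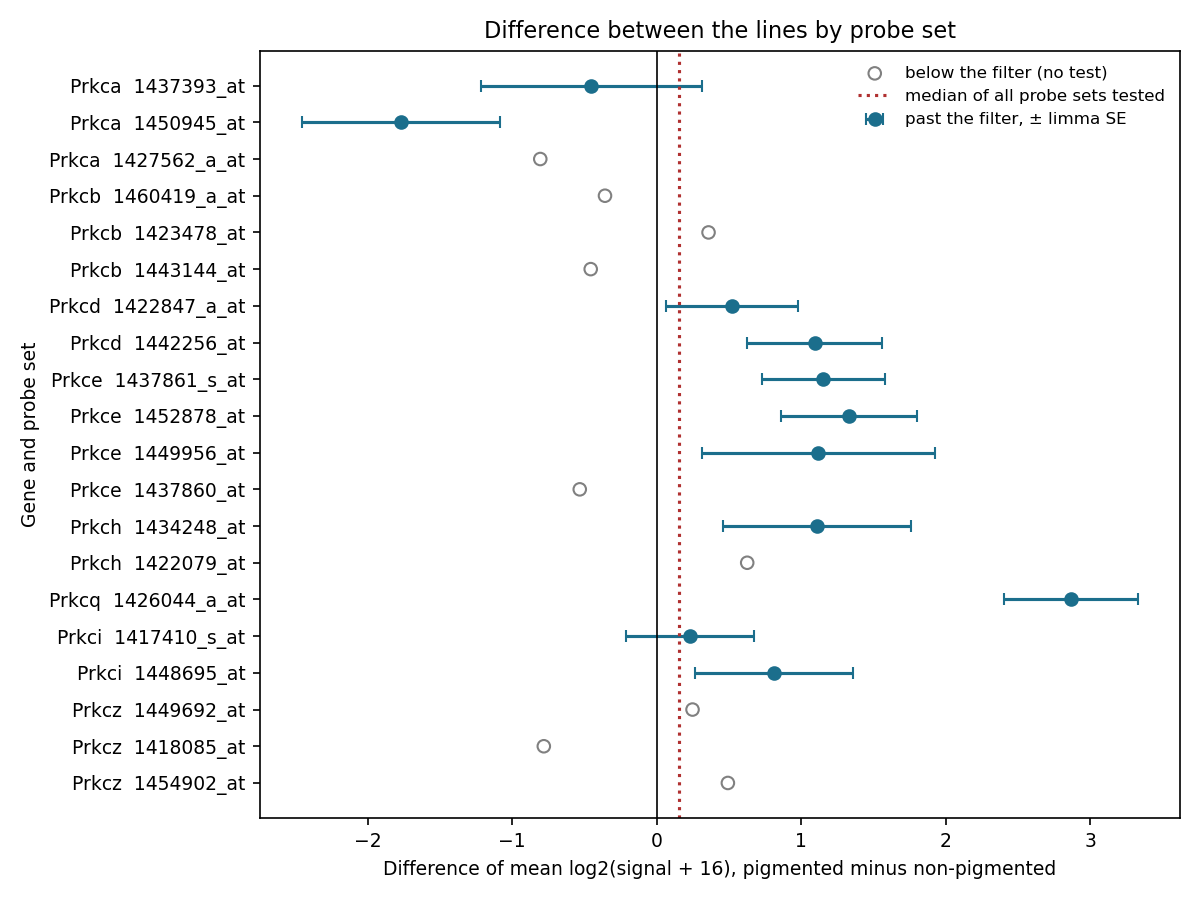
Difference of mean log2(signal + 16), pigmented minus non-pigmented, for the 20 probe sets, with limma standard errors for the 11 past the filter and open circles for the others. Prkcq stands at 2.86 and the 3 tested probe sets of Prkce between 1.12 and 1.33, while the dotted line marks the median of all probe sets tested, 0.16.

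By class, the 4 calcium-independent isoforms all had higher means in the pigmented line in the fit by gene. The atypical Prkci (0.23) also had a higher mean and the conventional Prkca a lower one, and each turned in 2 alternatives. Of the 6 genes tested, 5 had higher means, against 54.3% of all genes tested. Both pigmented arrays lay above both non-pigmented ones in 4 of the 6 genes tested, against 24.3% of all genes tested, and below them in 0, against 19.6%. The median difference over the 6 isoform genes tested was 0.82, against 0.07 over all genes tested, where the SD of the differences was 1.14. Of all 20 probe sets, 13 had a higher mean in the pigmented line (12 after median centring, which lowers every difference by 0.24 and turns 1417410_s_at of Prkci). Of the 11 tested, 9 had a higher mean, against 58.8% of all 27022 probe sets tested. Both pigmented arrays lay above both non-pigmented ones in 10 of the 20, against 26.2% of all 45037 non-control probe sets, and below them in 1, against 13.8%. Of the 11 tested these were 7, against 26.5% of all tested, and 1, against 16.1%. Probe sets of a gene share a source, and the 10 come from 7 genes, with 3 of them too dim to be tested.

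The direction of each difference was compared across the RNA integrity pairs and across the dates. Of the 11 probe sets tested, 10 had the same direction in both integrity pairs and 8 within both dates. Of all 27022 probe sets tested, 68.5% and 49.7% did. The exception among the integrity pairs was 1417410_s_at of Prkci, at -0.03 and 0.49. The exceptions among the dates were that probe set, 1437393_at of Prkca (1.09 and -1.996) and 1449956_at of Prkce.

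**Figure D3:**
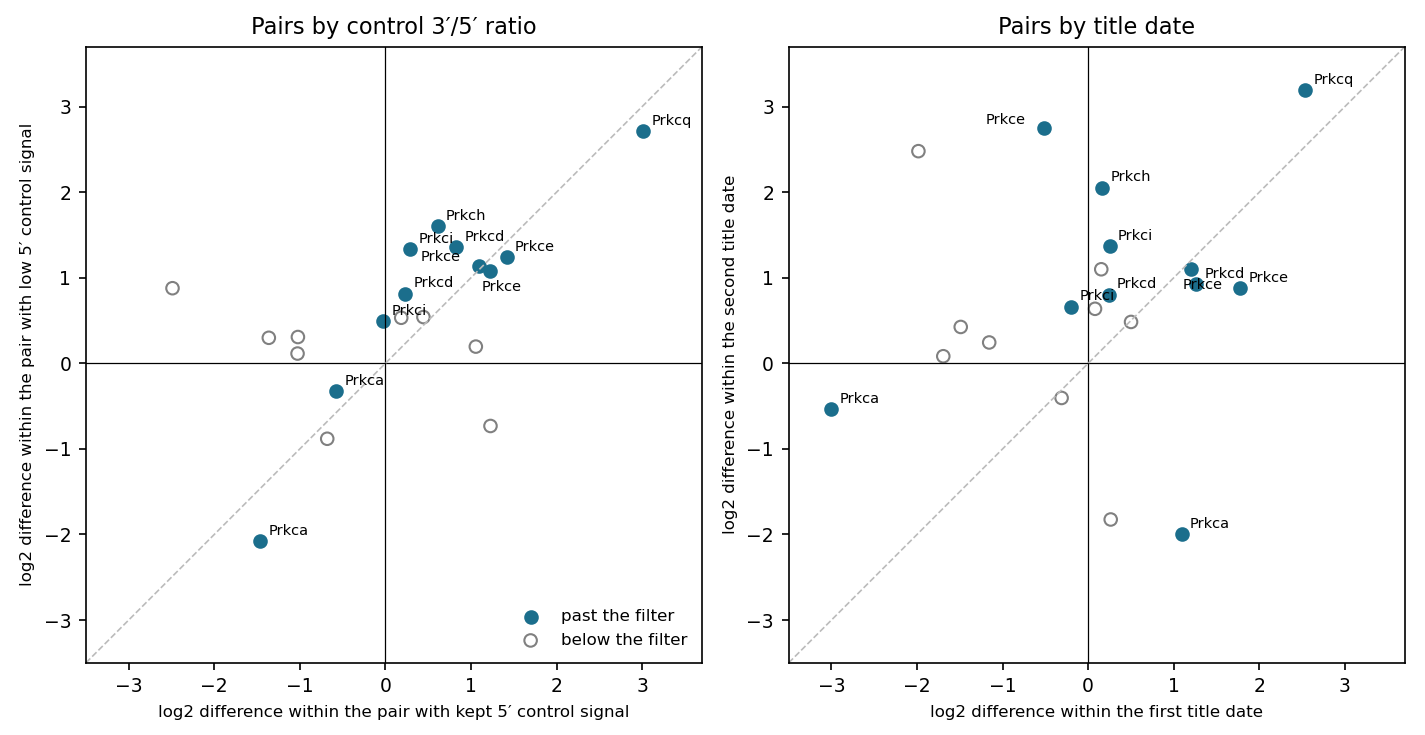
Differences of log2(signal + 16), pigmented minus non-pigmented, within each array pair, with pairs formed by the control 3′ to 5′ ratio at the left and by the title date at the right. Filled circles are the 11 tested probe sets. Most of them lie nearer the dashed line of equal differences at the left, but both probe sets of Prkcd and 1437861_s_at of Prkce do not. Prkcq is at 3.01 and 2.72 at the left and at 2.54 and 3.19 at the right.

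Other genes of the pathway were followed in lists. The median difference of the 5 related kinases tested was -0.05. Of the 5, limma called 0, against 3.51% of all genes tested. In that fit 1 had an unadjusted p under 0.05, against 13.9% of all. That was Pkn3, a kinase with a related catalytic domain, at 672 and 350.2 against 127 and 10.8. Its difference was -3.02 ± 0.85 (SE), with limma adjusted p-values of 0.159, 0.0316 with integrity pairs blocked and 0.107 with dates blocked. Its pigmented mean log2 of 5.95 lay under the filter, so it was tested only through its non-pigmented arrays. Its difference was -4.23 without pigmented replicate 1 (adjusted p of 0.00307 by limma) and -1.81 without pigmented replicate 2 (0.168). The phorbol-binding protein kinase D genes Prkd1 and Prkd3 had differences of 0.61 and 0.39. Prkd2 went the other way (-0.28), in all 4 of its probe sets past the filter, and none of these genes was called. The difference of Prkd1 was 0.0046 without non-pigmented replicate 1 and 1.22 without non-pigmented replicate 2. For Prkd3 1 of 2 probe sets past the filter had a higher mean in the pigmented line.

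Phorbol esters also bind C1 domains outside the kinases. Of 8 such receptor genes tested, 1 was called higher in the pigmented line, against 1.38% of all genes called in that direction, and the median was 0.34. It was Rasgrp3, an exchange factor that activates Ras, with signals of 243 and 375 in the non-pigmented and 1851 and 1814 in the pigmented arrays. Both of its probe sets were higher in the pigmented line, and the groups did not overlap. The difference was 2.54 ± 0.44 (SE) with an adjusted p of 0.0387 by limma. The call was lost in 6 of 17 alternatives, among them median centring (0.0553), no filter (0.0539), the mean of the gene's probe sets (0.0771), the date as a replicate block (0.101) and leaving out non-pigmented replicate 1 (0.223) or 2 (0.110).

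Unc13b, which primes vesicles for release, was at 153 and 139 against 638 and 1013. The difference was 2.34 ± 0.45 (SE), with limma adjusted p-values of 0.0509, 0.0263 with integrity pairs blocked and 0.111 with dates blocked. Over 17 alternatives it ranged from 0.91 to 2.67, with 3 past the threshold. Chn1 and Chn2, Rac regulators of the chimaerin family, had differences of 0.74 and 0.49, with 1 of 2 probe sets of Chn2 past the filter in that direction. Chn1 was dim, at 66.8 and 59.3 against 103 and 130. Its non-pigmented mean log2 of 6.30 lay under the filter, so it entered the test and the median of 0.34 only through its pigmented arrays.

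Phospholipase C enzymes make the diacylglycerol that TPA mimics. Of 7 tested, 1 was called lower in the pigmented line, against 2.14% of all genes, and the median was -0.69. It was Plcb4, an effector of Gq-coupled receptors, with signals of 1327 and 3542 in the non-pigmented and 224 and 256 in the pigmented arrays. The groups did not overlap, and the difference was -3.09 ± 0.57 (SE) with an adjusted p of 0.0469 by limma. The call was lost without non-pigmented replicate 2 (0.162), with the date as a replicate block (0.0556), without a filter (0.0675) and with a pseudocount of 1 (0.0532). Plcd3 had a difference of -2.73 (adjusted p of 0.121 by limma, and 0.0447 with the date as a replicate block). Its pigmented mean log2 of 5.45 lay under the filter, so it was tested only through its non-pigmented arrays. Plcb1 had a difference of -1.35 (0.210), with 2 of its 3 probe sets past the filter in that direction, and Plcb3 one of -0.39.

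Diacylglycerol kinases remove the lipid by phosphorylating it. Of 7 tested, limma called 0, against 3.51% of all genes tested. In that fit 0 had an unadjusted p under 0.05, against 13.9% of all, and the median was -0.50. Dgke had a difference of 1.06 (1 of 3 probe sets past the filter in that direction, and 0.056 for the mean of the 3), Dgkd of -0.94 and Dgka of -0.88, with adjusted p-values from 0.375 to 0.477 by limma.

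Of 20 genes that prime, anchor or degrade the kinases, 1 was called lower, against the same 2.14%, and the median was -0.05. It was Akap12, a scaffold that binds protein kinase C and is phosphorylated by it, at 1656 and 3669 against 376 and 258, a difference of -2.92 ± 0.54 (SE) with an adjusted p of 0.0469 by limma. This call was lost without non-pigmented replicate 2 (0.194) or pigmented replicate 2 (0.0536), with the date as a replicate block (0.0576), without a filter (0.0646) and with a pseudocount of 1 (0.0537). Wwc1, a partner of the atypical isoforms, had a difference of 0.97 (-0.067 when only plain _at probe sets were used) and Pard6b, another, one of 1.06. Prkcsh, a glucosidase subunit once named as a substrate of the kinase, had one of -1.08. None of these 3 was called.

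Of 10 substrate genes tested, 1 was called lower, against 2.14% of all genes, and the median was -0.10. Ppp1r14c, an inhibitor of protein phosphatase 1 that protein kinase C activates, had signals of 1806 and 1746 against 222 and 278. The difference was -2.76 ± 0.42 (SE) with an adjusted p of 0.0252 by limma, lost with the date as a replicate block (0.0666) and without non-pigmented replicate 1 (0.106) or 2 (0.105). With integrity pairs blocked, 3 of the 10 were called, against 7.12% of all genes. The 2 further genes were Marcks, a membrane and actin binding protein and a main substrate of the family, and Cavin2, a caveolar protein that binds the kinase. Marcks was at 2345 and 5519 against 7962 and 17448, with all 7 of its probe sets in that direction (1.71 ± 0.57, adjusted p of 0.243 by limma and 0.0129 with that block). Cavin2 was at 4706 and 4934 against 1763 and 994 (-1.85, 0.100 and 0.0335). With the date as a replicate block 0 of the 10 were called, and the adjusted p by limma was 0.367 for Marcks and 0.279 for Cavin2. Plek, a substrate known from platelets, had a difference of 1.89 and an adjusted p of 0.121 by limma.

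Genes that phorbol esters are known to induce through AP-1 and related factors mostly had lower means in the pigmented line. Of 19 tested, 16 had lower means, against 45.7% of all genes, and limma called 1 lower, against 2.14%. An unadjusted p under 0.05 was found for 10, against 13.9% of all genes, and 9 of the 10 had lower means, all but Fosl2. The median was -0.97, against 0.07 over all genes tested. The called gene was Mmp3, a matrix protease, at 905 and 913 against 125 and 39.9 (-3.38 ± 0.56, adjusted p of 0.0328 by limma), a call lost without a filter (0.0618) and without non-pigmented replicate 1 (0.0835) or 2 (0.0862). With integrity pairs blocked, 6 of the 19 were called, all lower, against 4.38% of all genes called lower in that fit. With the date as a replicate block 1 of the 19 was called, Mmp3 (adjusted p of 0.0240 by limma). Ier3, an immediate early gene, was at 9651 and 6156 against 2027 and 2257 (-1.84, adjusted p of 0.0745), and Egr1, an early transcription factor, at 7405 and 4686 against 2328 and 2002 (-1.44, 0.161). Fosl2, an AP-1 subunit, was at 1223 and 971 against 2928 and 9823 (2.28, 0.154). Over 17 alternatives its difference ranged from 1.34 to 3.15, the latter without pigmented replicate 1, with 1 past the threshold. Since both lines grew with TPA, these are levels under continued exposure.

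**Figure D4:**
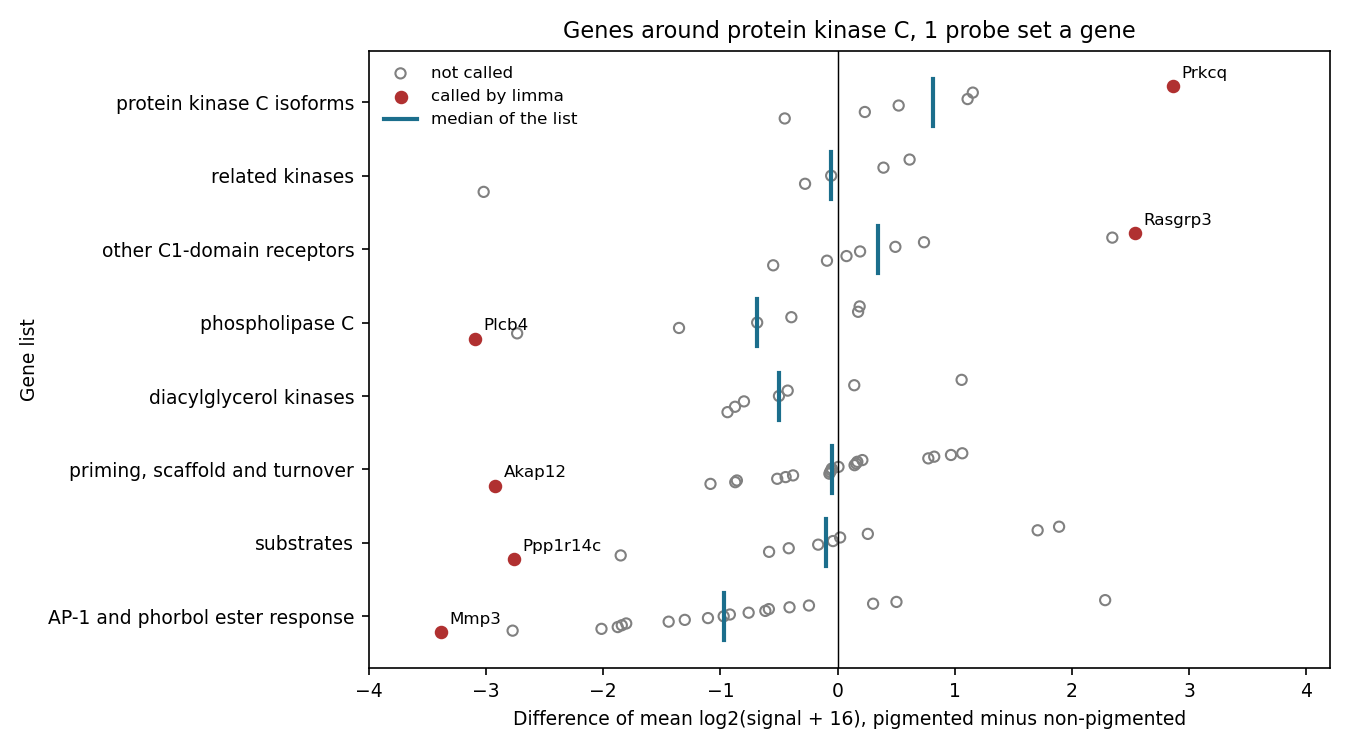
Differences of log2(signal + 16), pigmented minus non-pigmented, for the tested genes of each list, 1 probe set a gene, with called genes in red and the median of each list as a bar. The called genes are Prkcq (2.86) and Rasgrp3 (2.54) at the right and Plcb4, Akap12, Ppp1r14c and Mmp3 (-3.38) at the left.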

How the data were processed

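RNA of 4 melanocyte samples, labelled with biotin, was read on Affymetrix mouse arrays. Each deposited value is the linear intensity of a probe set on 1 array, made by the authors with Affymetrix Expression Console per the submitters' processing notes. Its version and summary algorithm are not given in the sources used here. The mean after trimming 2% at either end was 500.0 in every column, so the authors had scaled the arrays in bulk, which does not correct differences in RNA integrity. Genes were named from the platform annotation (34945 of 45037 non-control probe sets with 1 symbol).

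From these, log2(signal + 16) was computed, the lowest 40% of probe sets by mean were left out, and limma 3.58.1 in R 4.3.3 was run (lmFit, eBayes with an intensity trend), tested on simulated data. The design had no other term. Deviations of same-date arrays from their line's mean correlated at -0.51, and those of arrays alike in the Gapdh ratio (over 3 or not) at 0.51, the same value with its sign turned. Both pairings were run as a block. Figures used matplotlib 3.10.9.

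Named were all isoform probe sets, the called genes of each list with the 3 next by p, and the 4 genes most like the isoform with the smallest p. Other genes were named after their values were seen. The members and lists were chosen with earlier results of these data known. Protein sequences were not used here.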

Additional observations from a re-analysis of the deposited data

How the results depend on the processing

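The count of called genes, 441, became 894 when RNA integrity pairs were blocked, and ranged from 239 (without non-pigmented replicate 2) to 819 (without pigmented replicate 1) when single arrays were left out. The count of called probe sets, 402, became 251 without a filter and 1255 with those pairs blocked, and ranged from 170 (without non-pigmented replicate 2) to 765 (without pigmented replicate 1), with 238 without non-pigmented replicate 1. With the date as a replicate block the counts were 404 genes and 378 probe sets, and Prkcq kept its difference of 2.86 but not its call. Without single arrays the Prkcq difference lay between 2.63 and 3.10. Its probe set passed the threshold in 3 of 14 alternatives and missed it in 11. It had an adjusted p by limma of 0.0444 with a filter at the 60th percentile and 0.0490 with robust estimation. Among the misses were the fits without a filter (0.0640) and with the date as a replicate block (0.158). The difference of Prkci turned to -0.012 under median centring, and without single arrays it ranged from -0.11 (without non-pigmented replicate 2) to 0.58. That of Prkca ranged from -1.29 to 0.38, turning without non-pigmented replicate 2 (0.26) or pigmented replicate 1, the same in both fits. Wwc1 turned to -0.067 with plain _at probe sets only, a setting that left Prkcq without a value. Unc13b passed the threshold in 3 of 17 alternatives, Cavin2 and Marcks in 2 of 17 each and Plcd3 in 2 of 15. Among these were the fits without pigmented replicate 1 for Unc13b, Cavin2 and Marcks, and without pigmented replicate 2 for Plcd3. The causes were not tested. In no alternative was another isoform called. Representing a gene by its highest mean log2 value, an alternative chosen after seeing the data, gave 422 called genes. With 1 array left out, the lone array of its line was assumed to vary like the other line. Dim probe sets limit what can be said of Prkcb, Prkcz and Prkch.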
